A study of Mus musculus with 9 samples.

Results

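The 39 genes described here are the enzymes and transporters of glycolysis and lactate handling (25 genes) and the subunits, regulators and classical targets of the hypoxia-inducible factor (HIF) pathway (14 genes), chosen by name among the 49548 genes in the deposited tables. All 39 were found. They were measured in primary synovial fibroblasts (SFs), the mesenchymal cells of the joint lining and sublining, cultured from the ankle joints of 8-week-old mice on a mixed CBA C57BL/6J background. There were 3 groups of 3 libraries: SFs from wild-type mice (WT), SFs from mice carrying a human TNF transgene that causes chronic polyarthritis (hTNFtg), and hTNFtg SFs given infliximab, an antibody that neutralises human TNF, at 1 µg/mL for 48 hours. The other WT and hTNFtg libraries are labelled as not treated, and the methods of the study describe vehicle. All cultures had been depleted of CD45+ cells, and the libraries were 3′ mRNA libraries, in which a read marks the end of a transcript. Values below are the deposited normalized counts, always given in the order of replicates 1, 2 and 3.

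Glycolysis splits glucose taken up by transporters such as Slc2a1 into pyruvate, which lactate dehydrogenase turns into lactate for export by Slc16a3. In arthritic joints the synovium is known to be poorly oxygenated, and activated SFs are known for high glucose use. HIF is a dimer whose alpha subunit, encoded by Hif1a or Epas1, is hydroxylated in oxygen by the prolyl hydroxylases Egln1 and Egln3 and then marked for degradation by the protein of Vhl. When oxygen is low the subunit persists and binds the core motif ACGTG or GCGTG near genes of glycolysis, lactate export and its own degradation, so Hif1a is regulated largely at the protein level and its mRNA is a poor measure of its activity.

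The promoters of members that rose in hTNFtg SFs by the rule of the study (an unadjusted P under 0.05 with a change of 1 or more on the log2 scale) are shown where they hold ACGTG before the start site, to let the core motif be seen in place. RefSeq promoters on GRCm38.p6, from 250 bases before to 50 bases after the start site, were matched by symbol for 36 of the 39 members. The motif ACGTG on either strand was in at least 1 listed promoter of 23 of the 36, or 63.9% of them, against 21.8% of all 27025 genes in that table. With GCGTG on either strand counted as well, it was 32 of 36, or 88.9%, against 46.7%. Counted per promoter, ACGTG was in 27 of the 53 promoters of members (50.9%) and in 19.6% of all 32851. Slc2a3, Epas1 and Ndrg1 were not matched. The members were chosen by name as glycolysis genes and classical HIF targets, so these shares describe the list and are not a result of these data. They stand against all genes of the promoter table, expressed here or not. A match is a description of the letters and not of binding. The 250 bases before the start site of those 5 members are given 5′ to 3′ on the strand of the gene, with every ACGTG, or CACGT for the other strand, in capitals.
Slc2a1, chr4:119108495-119108744 (plus strand): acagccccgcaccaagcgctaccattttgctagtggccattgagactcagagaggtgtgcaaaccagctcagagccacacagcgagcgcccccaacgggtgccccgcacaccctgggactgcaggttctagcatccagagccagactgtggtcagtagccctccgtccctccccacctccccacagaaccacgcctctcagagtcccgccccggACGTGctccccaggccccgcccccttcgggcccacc
Ldha, chr7:46845554-46845803 (plus strand): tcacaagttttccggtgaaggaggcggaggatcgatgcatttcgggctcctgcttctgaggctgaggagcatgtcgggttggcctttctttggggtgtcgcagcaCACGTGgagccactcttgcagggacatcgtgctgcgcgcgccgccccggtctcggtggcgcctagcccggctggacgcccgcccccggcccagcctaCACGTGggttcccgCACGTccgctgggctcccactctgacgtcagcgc
Slc16a3, chr11:120948817-120949066 (plus strand): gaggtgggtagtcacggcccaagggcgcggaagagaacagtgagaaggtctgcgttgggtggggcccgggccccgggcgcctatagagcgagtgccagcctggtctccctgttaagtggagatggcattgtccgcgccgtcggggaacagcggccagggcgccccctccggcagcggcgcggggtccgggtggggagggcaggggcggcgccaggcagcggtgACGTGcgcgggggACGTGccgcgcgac
Egln1, chr8:124949255-124949504 (minus strand): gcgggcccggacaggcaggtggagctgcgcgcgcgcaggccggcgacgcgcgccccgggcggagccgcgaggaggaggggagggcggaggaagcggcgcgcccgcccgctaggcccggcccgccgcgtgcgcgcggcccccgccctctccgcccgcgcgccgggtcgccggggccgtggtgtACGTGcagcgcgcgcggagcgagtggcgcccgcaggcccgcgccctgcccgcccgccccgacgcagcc
Egln3, chr12:54203875-54204124 (minus strand): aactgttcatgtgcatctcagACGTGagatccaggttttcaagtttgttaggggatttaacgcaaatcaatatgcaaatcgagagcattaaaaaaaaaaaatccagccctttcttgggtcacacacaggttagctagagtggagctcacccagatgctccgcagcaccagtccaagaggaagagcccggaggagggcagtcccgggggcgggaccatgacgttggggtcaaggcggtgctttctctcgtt
Ldha held 2 copies of the palindrome CACGTG, which reads as the motif on both strands, and Slc16a3 held a pair of ACGTG within the last bases before its start site. The promoters of Aldoc and Gapdh had their ACGTG match after the start site, and that of Gpi1 had neither motif in this window. Ldha and Aldoc have a further listed promoter each, without ACGTG.

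In hTNFtg SFs, 12 of the 25 glycolysis members and 3 of the 14 HIF-pathway members rose against WT SFs, among the latter the prolyl hydroxylases Egln1 and Egln3. Of the 39 members, 15 rose and 2 fell at an unadjusted P under 0.05 in limma, which is what rose and fell mean below, against 4.02% of all 28522 genes tested that rose and 3.69% that fell. With the rule of the study, given above, 8 rose and 2 fell, against 3.35% and 3.04% of all genes. The 8 were Slc2a1, Gpi1, Aldoc, Gapdh, Ldha, Slc16a3, Egln1 and Egln3, and the 2 were Epas1 and Ndrg1. Every hTNFtg library lay above every WT library for 17 members and below for 2, which was so for 5.63% and 5.8% of all genes. The median log2 fold change was 0.71 over the members and 0.00 over all genes, with 32 members above 0 and 7 below. Since 37 members averaged 10 normalized counts or more, the shares among the 13634 genes at that level are also given: 6.37% rose and 5.39% fell at an unadjusted P under 0.05. Of the same 13634 genes, 9.42% lay above WT without overlap and 9.21% below. No member passed an adjusted p of 0.05 in limma, a threshold passed by 0.48% of all genes, and the lowest adjusted p of a member was 0.127, for Gpi1. edgeR on approximate reads, which called 3.24% of all genes at an adjusted p under 0.05, called 7 members: Slc2a1, Hk2, Aldoc, Gapdh, Slc16a3 and Egln3 as higher and Epas1 as lower. Leaving out WT replicate 3 gave 11 members at an unadjusted P under 0.05 in place of 17, with 783 of all 27534 genes higher and 737 lower. Leaving out hTNFtg replicate 2 gave 10 members, with 1066 of 27539 genes higher and 1108 lower. Without hTNFtg replicate 3 the count grew, to 19 members higher and 3 lower, with 1436 and 1555 of 27017 genes. The calls that held whichever library was left out were 10, those of Slc2a1, Gpi1, Pfkl, Aldoc, Pgam1, Ldha, Egln1, Egln3, Epas1 and Ndrg1.

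**Figure D1:**
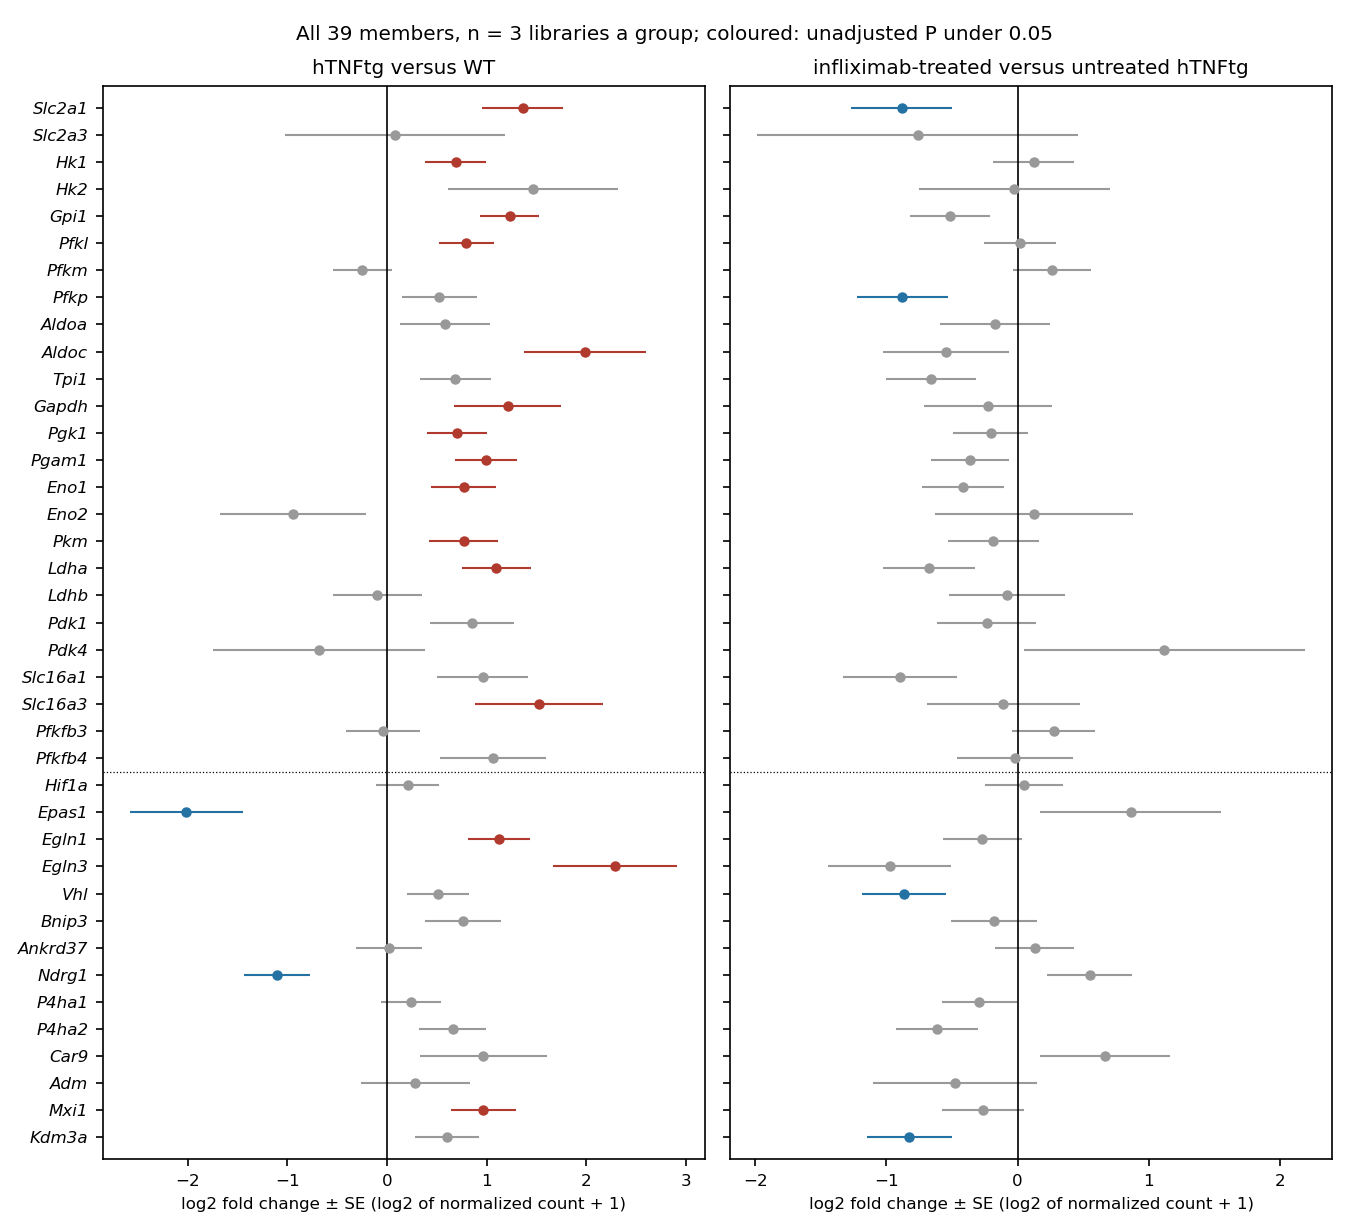
Log2 fold change (x axis, log2 of the normalized count plus 1) with its standard error for each of the 39 members (y axis, glycolysis above the dotted line, HIF pathway under it), for hTNFtg against WT on the left and infliximab-treated against untreated hTNFtg on the right, n = 3 libraries a group. Coloured points had an unadjusted P under 0.05 in limma: 15 higher and 2 lower on the left, 4 lower on the right.

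The libraries differed in depth and in markers of other cell types. From the step between low values, hTNFtg replicate 1 held about 613344 reads and the other 8 libraries 3829078 to 9014869, so that 1 read in hTNFtg replicate 1 was worth 6.23 normalized counts and values under 18.7, or 3 reads, were at its floor. The summed normalized count of 12 macrophage markers was 209 to 779 in WT, 3420 to 7772 in hTNFtg and 2262 to 4690 in infliximab-treated libraries, with Lyz2, the most abundant of them in each hTNFtg library, treated or not, at 43 to 277, 2284 to 5356 and 1277 to 2672, and 12 of the 13 table entries rose in hTNFtg at an unadjusted P under 0.05. Ptprc, which encodes the CD45 antigen used for depletion, was 0 to 3 in WT, 9 to 31 in hTNFtg and 8 to 28 in infliximab-treated libraries. The sum of 12 fibroblast markers was 43075 to 53269, 38527 to 46548 and 36310 to 42683, and of these markers Pdpn (2.01) and Thy1 (0.69) rose and Lum (-1.69) and Pdgfrb (-0.76) fell in hTNFtg by their log2 fold changes. Of 7 chondrocyte markers in the tables, Comp, which fibroblasts also express, had 4373 to 7288 in WT, 299 to 848 in hTNFtg and 573 to 1933 with infliximab, and the cartilage genes Acan (16, 16 and 5 in WT, 0, 1 and 0 in hTNFtg) and Col9a1 (1, 14 and 19 in WT, 0 in each hTNFtg library) fell too, while Col2a1 had 37 to 133 in all libraries. Of 6 osteoclast markers, 3 rose in hTNFtg, and their sum was 156 to 339, 323 to 470 and 273 to 661. Of 8 neutrophil markers, Camp had 9 to 20 in WT, 41 to 104 in hTNFtg and 19 to 44 with infliximab. The more abundant Elane had 695 to 1024, 519 to 953 and 620 to 875, and the others stayed at 0 to 9. The sum of the 8 was 705 to 1039, 566 to 1040 and 640 to 911. Of 6 adipocyte markers, Fabp4 had 359 to 443, 65 to 436 and 120 to 217, and the others stayed at 0 to 6. Hepatocyte markers summed to 1071 in infliximab replicate 3, with Alb at 265, against 42 to 179 in the other 8 libraries. Without that library, 3 of the 4 calls against untreated hTNFtg and 16 of the 18 calls against WT described below were kept. The part of RNA of these cell types in the differences below was not tested, and in bulk RNA fewer cells of a type and less RNA per cell cannot be told apart.

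Of the genes of glucose uptake and its trapping, Slc2a1 and Hk1 rose in hTNFtg SFs and Slc2a3 and Hk2 did not pass. Slc2a1, the main basal glucose transporter (mm10, chromosome 4, 119108711 to 119137983), had 98, 95 and 116 normalized counts in WT, 473, 283 and 139 in hTNFtg and 146, 142 and 142 in infliximab-treated libraries. All 3 hTNFtg libraries lay above WT, with replicate 3 the lowest, and the log2 fold change on the log2(normalized count + 1) scale, which understates the change of low genes, was 1.36 ± 0.41 (SE, adjusted p = 0.267). The other transporter, Slc2a3, stayed between 0 and 16 in all libraries. Hk1, the widely expressed hexokinase that traps glucose in the cell, had 292, 295 and 232 in WT, 504, 540 and 309 in hTNFtg and 591, 396 and 464 with infliximab. Its hTNFtg values did not overlap with WT, at a log2 fold change of 0.69 ± 0.31 (adjusted p = 0.636), a call lost without any 1 of the WT libraries or of hTNFtg replicates 1 and 2 (log2 fold changes of 0.54 to 0.75). Hk2, the inducible hexokinase, had 127, 43 and 27 in WT, 617, 145 and 36 in hTNFtg and 205, 170 and 89 with infliximab. It varied more within hTNFtg than between the groups, so that its log2 fold change of 1.47 ± 0.85 did not pass (adjusted p = 0.726) in limma, while it passed in edgeR.

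Gpi1, which converts glucose 6-phosphate to fructose 6-phosphate (chromosome 7, 34201330 to 34230336), had 306, 402 and 303 in WT, 685, 711 and 996 in hTNFtg and 518, 444 and 726 with infliximab. Its lowest hTNFtg library was above its highest WT library and its log2 fold change was 1.23 ± 0.30 (adjusted p = 0.127), the lowest P among the members in this comparison. The phosphofructokinases, which catalyse the committed step, did not move alike. Pfkl, the liver-type enzyme, had 150, 186 and 149 in WT, 262, 274 and 306 in hTNFtg and 277, 237 and 348 with infliximab, and rose in hTNFtg by 0.80 ± 0.28 (adjusted p = 0.388) with no overlap. Pfkp, the platelet type, had 88, 159 and 140 in WT, 174, 120 and 281 in hTNFtg and 87, 89 and 120 with infliximab, and overlapped between WT and hTNFtg. Pfkm, the muscle type, stayed between 104 and 172 in all libraries. Reads of Pfkm and Pfkp could include some of Senp1 and Pitrm1, which overlap them on the other strand.

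Aldoc, an aldolase best known from brain, had 14, 19 and 6 in WT, 100, 30 and 41 in hTNFtg and 33, 42 and 28 with infliximab. All hTNFtg libraries were above WT, and its log2 fold change of 1.99 ± 0.61 (adjusted p = 0.277) was the highest of the glycolytic members. Aldoa, the main aldolase, ranged from 1641 to 3321 in WT and 2192 to 5572 in hTNFtg and overlapped (0.58 ± 0.45, adjusted p = 0.726). Tpi1, which interconverts the triose phosphates, ranged from 1413 to 1922 in WT, 2043 to 3404 in hTNFtg and 1508 to 1733 with infliximab, without overlap of hTNFtg with either group (0.69 ± 0.36 against WT, adjusted p = 0.726). Its counts cannot be told apart from those of Spsb2, which overlaps its end by 34 bases on the opposite strand and whose deposited values differed from those of Tpi1 by at most 0.93% in every library.

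In the lower part of the pathway, which yields ATP and pyruvate, 5 of 6 members rose, against 4.02% of all genes tested. Gapdh, the glyceraldehyde phosphate dehydrogenase often used as a reference gene, had 508, 432 and 267 in WT, 2192, 878 and 379 in hTNFtg and 866, 713 and 743 with infliximab. Its hTNFtg replicate 3 lay inside the WT range, and its log2 fold change of 1.21 ± 0.54 (adjusted p = 0.628) was lost without any 1 of the WT libraries or of hTNFtg replicates 1 and 2 (0.57 to 1.40). Iffo1, which overlaps the end of Gapdh by 68 bases on the opposite strand, had 244 to 406 in WT and 379 to 1507 in hTNFtg, so reads from the shared bases could be counted in both, and the copy Gapdh-ps15 had 21 to 44 in WT and 55 to 100 in hTNFtg.

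Pgk1, the phosphoglycerate kinase on chromosome X, had 647, 865 and 565 in WT, 1152, 1190 and 1001 in hTNFtg and 978, 973 and 943 with infliximab. It rose by 0.70 ± 0.30 (adjusted p = 0.599) without overlap, a call lost without WT replicate 1, WT replicate 3 or hTNFtg replicate 2 (0.57 to 0.67). Its copy Pgk1-rs7 had about as many counts, 571 to 945 in WT and 872 to 1307 in hTNFtg, more than Pgk1 in 6 of the 9 libraries, so the share of each is uncertain. Pgam1, the phosphoglycerate mutase, had 680, 958 and 610 in WT, 1352, 1553 and 1508 in hTNFtg and 1149, 1065 and 1217 with infliximab. All hTNFtg libraries were above WT and the log2 fold change was 1.00 ± 0.31 (adjusted p = 0.291), just under the limit of the rule. The pseudogene Pgam1-ps2 held more counts than Pgam1 itself in every library, 731 to 1252 in WT and 1906 to 2033 in hTNFtg, and rose likewise by 1.11 ± 0.33 (adjusted p = 0.254).

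Eno1, the ubiquitous enolase, had 939, 1484 and 1027 in WT, 2005, 2030 and 1742 in hTNFtg and 1479, 1437 and 1404 with infliximab. It rose by 0.77 ± 0.33 (adjusted p = 0.599) without overlap, a call lost without WT replicate 1, WT replicate 3 or hTNFtg replicate 2 (0.64 to 0.73), and its copy Eno1b had 109 to 216 in WT and 300 to 306 in hTNFtg. The neuronal enolase Eno2 had 29 to 73 in WT and 12 to 104 in hTNFtg, with overlap. Pkm, the pyruvate kinase, had 1609, 1434 and 1114 in WT, 2516, 2782 and 1824 in hTNFtg and 1882, 2154 and 2147 with infliximab. It rose by 0.77 ± 0.35 (adjusted p = 0.637) without overlap, and the call was lost without WT replicate 2 or 3 or hTNFtg replicate 1 or 2 (0.62 to 0.80).

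Of the 6 members for lactate and pyruvate handling, 2 rose in hTNFtg SFs, Ldha and Slc16a3, against 4.02% of all genes tested. Ldha, the lactate dehydrogenase subunit that favours lactate (chromosome 7, 46841475 to 46855627), had 1212, 1792 and 1722 in WT, 3220, 3181 and 3589 in hTNFtg and 2338, 2116 and 1824 with infliximab. Its 3 groups did not overlap with one another, hTNFtg being the highest and WT the lowest, and Ldha rose in hTNFtg by 1.10 ± 0.35 (adjusted p = 0.306). Ldhb, the subunit that favours pyruvate, stayed between 24 and 47. Slc16a3, the exporter of lactate (chromosome 11, 120948480 to 120960868), had 351, 845 and 568 in WT, 579, 1414 and 4928 in hTNFtg and 1399, 1248 and 1844 with infliximab. One hTNFtg library stood far above the rest and another lay inside the WT range, and the log2 fold change of 1.53 ± 0.64 (adjusted p = 0.582) was lost without any 1 of the WT libraries or of hTNFtg replicates 2 and 3 (0.71 to 1.83).

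Slc16a1, a transporter that carries lactate in both directions, had 22 to 43 in WT, 46 to 112 in hTNFtg and 25 to 46 with infliximab (0.96 ± 0.46 in hTNFtg, adjusted p = 0.677). Pdk1, the kinase that keeps pyruvate out of the mitochondrial cycle, had 151, 151 and 84 in WT, 380, 246 and 122 in hTNFtg and 161, 189 and 229 with infliximab, and overlapped between WT and hTNFtg (0.85 ± 0.43, adjusted p = 0.708). Pdk4 was between 0 and 13 in all libraries. Neither regulator of fructose 2,6-bisphosphate passed in hTNFtg. Pfkfb3, the inducible activator of glycolysis, had 537, 493 and 272 in WT, 293, 625 and 362 in hTNFtg and 488, 526 and 458 with infliximab, a log2 fold change of -0.04 ± 0.37 in hTNFtg (95% interval -0.86 to 0.78). Pfkfb4 had 26, 17 and 11 in WT, 50, 41 and 24 in hTNFtg and 31, 46 and 33 with infliximab (1.07 ± 0.53 in hTNFtg, adjusted p = 0.705).

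Of the HIF subunits, Hif1a mRNA did not differ beyond its spread while Epas1 fell. Hif1a (chromosome 12, 73901375 to 73947530) had 929, 946 and 678 in WT, 828, 894 and 1243 in hTNFtg and 990, 945 and 1090 with infliximab. Its groups overlapped and the log2 fold change in hTNFtg was 0.21 ± 0.31 (95% interval -0.48 to 0.90, adjusted p = 0.799). Epas1, the alpha subunit known from endothelium and other restricted cell types (chromosome 17, 86753907 to 86833410), had 47, 31 and 29 in WT, 6, 9 and 9 in hTNFtg and 12, 18 and 16 with infliximab. Every hTNFtg library was below every WT library, at a log2 fold change of -2.01 ± 0.56 (adjusted p = 0.216), and the infliximab-treated libraries lay between the groups without overlap. The value of 6 in hTNFtg replicate 1 is a single read, under the floor of that library, and without that library Epas1 still fell. Of 8 markers of endothelium, a cell type known for Epas1, Egfl7 had 280, 287 and 295 in WT, 106, 179 and 236 in hTNFtg and 226, 178 and 236 with infliximab, while the defining markers Pecam1, Cdh5, Tie1, Kdr and the others stayed at 0 to 6 in all libraries.

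Of the hydroxylases that tag the alpha subunits, Egln1 and Egln3 rose. Their relative Egln2, from the further HIF-pathway genes, had 970, 1006 and 1096 in WT, 922, 971 and 932 in hTNFtg and 793, 777 and 695 with infliximab, at -0.12 ± 0.29 in hTNFtg (adjusted p = 0.896). Egln1, the main oxygen-sensing prolyl hydroxylase (chromosome 8, 124908587 to 124949324), had 175, 215 and 148 in WT, 461, 281 and 452 in hTNFtg and 324, 270 and 382 with infliximab. Both hTNFtg groups lay above WT, and Egln1 rose in untreated hTNFtg by 1.13 ± 0.31 (adjusted p = 0.211). Egln3, the hydroxylase most strongly induced by HIF itself (chromosome 12, 54178981 to 54203860), had 4, 21 and 8 in WT, 44, 40 and 62 in hTNFtg and 29, 14 and 33 with infliximab. Its hTNFtg libraries were above all others, and its log2 fold change of 2.29 ± 0.62 (adjusted p = 0.202) was the highest of the 39 members. Vhl, the recognition subunit of the ligase that removes hydroxylated HIF, had 121, 144 and 160 in WT, 181, 164 and 276 in hTNFtg and 86, 115 and 135 with infliximab, above WT in all hTNFtg libraries but not past the test (0.52 ± 0.31, adjusted p = 0.726).

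**Figure D2:**
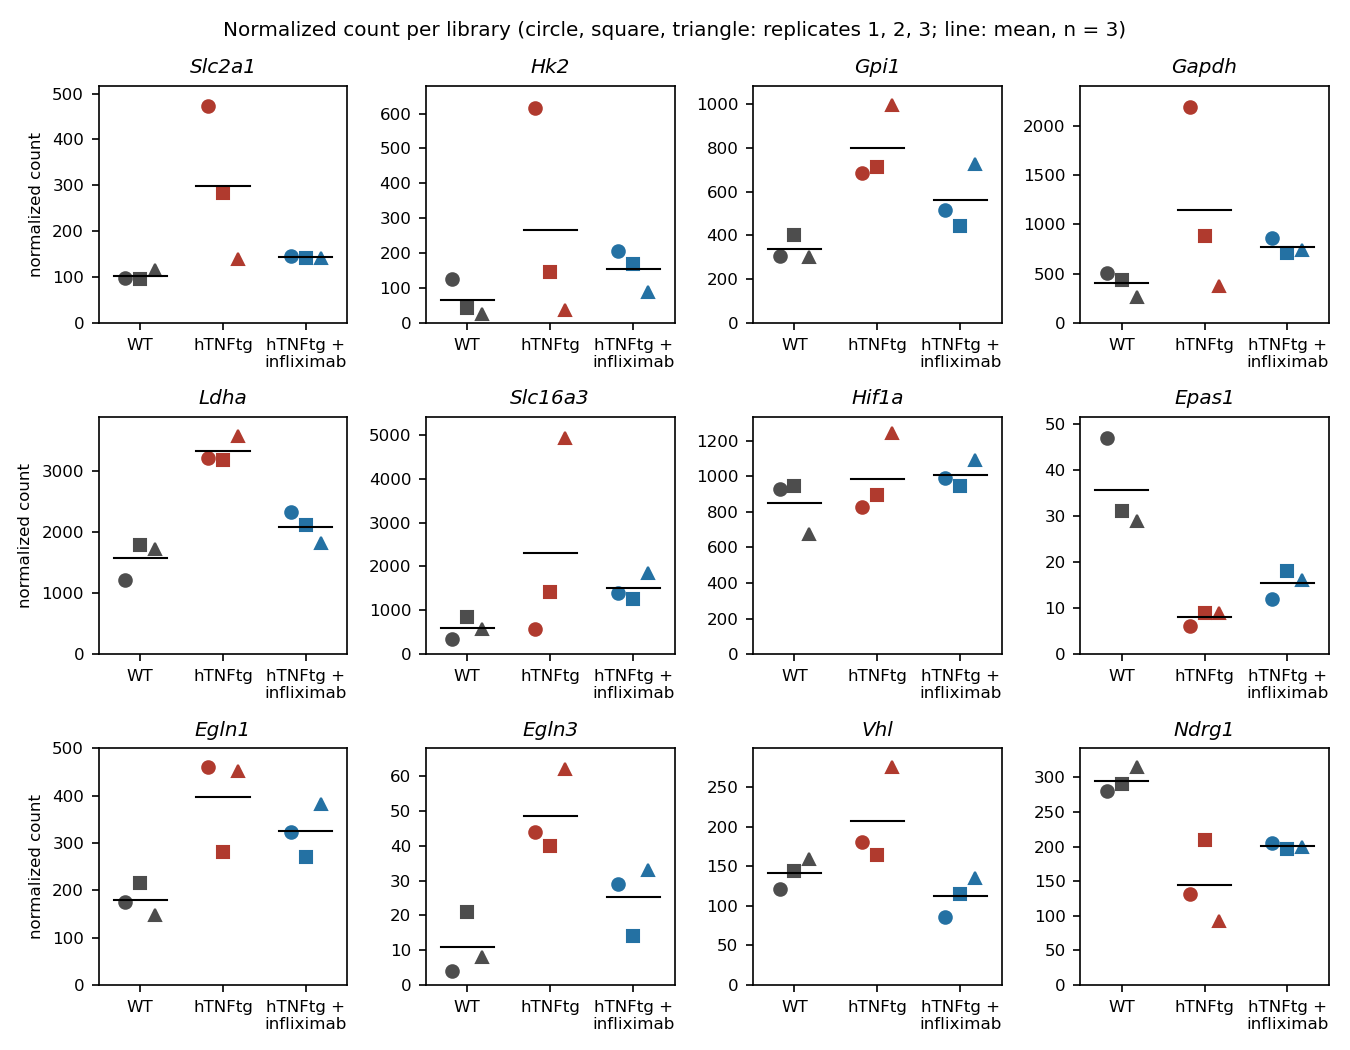
Normalized count (y axis, linear, from 0) of 12 members in each of the 9 libraries, by group on the x axis, with the replicate shown by the shape of the point and the mean of 3 by a line. The hTNFtg libraries of Slc2a1, Gpi1, Ldha, Egln1 and Egln3 lie above WT and those of Epas1 and Ndrg1 below, whereas in Hk2, Gapdh and Slc16a3 they spread over the WT range and far above it.

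Of 9 classical HIF targets outside glycolysis, 1 rose and 1 fell in hTNFtg, and 8 had a log2 fold change above 0, with a median of 0.60. Of all genes tested, 4.02% rose, 3.69% fell and 46.2% had a log2 fold change above 0. Mxi1, a MYC antagonist, had 57, 63 and 52 in WT, 87, 131 and 126 in hTNFtg and 83, 96 and 104 with infliximab. It rose by 0.97 ± 0.33 (adjusted p = 0.372) without overlap, a call lost without hTNFtg replicate 2 (0.86). Ndrg1, a stress-responsive gene commonly induced by hypoxia, had 281, 290 and 315 in WT, 131, 209 and 93 in hTNFtg and 205, 197 and 199 with infliximab, all below WT, at -1.10 ± 0.33 in hTNFtg (adjusted p = 0.27).

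Kdm3a, a histone demethylase, had 56, 62 and 66 in WT, 100, 84 and 97 in hTNFtg and 50, 55 and 52 with infliximab, so that hTNFtg was above both other groups (0.60 ± 0.32 against WT, adjusted p = 0.726). Car9, the carbonic anhydrase that is among the most hypoxia-specific genes, had 36, 18 and 10 in WT, 75, 39 and 18 in hTNFtg and 83, 48 and 55 with infliximab, with overlap of WT and hTNFtg (0.97 ± 0.64, adjusted p = 0.726). The other 5 targets overlapped between WT and hTNFtg. The mitophagy gene Bnip3 had 443 to 918 in WT and 799 to 1507 in hTNFtg, and the collagen prolyl hydroxylases P4ha1 and P4ha2 had 499 to 668 against 581 to 872 and 665 to 1142 against 1134 to 1712. Adm, which encodes the vasodilator adrenomedullin, had 5177 to 7480 in WT, 4196 to 12095 in hTNFtg and 2790 to 12642 with infliximab. Ankrd37 had 140 to 220 and 137 to 249, and its reads could include some of Ufsp2, which overlaps it by 57 bases on the other strand and had 255 to 392 and 194 to 492.

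Within hTNFtg the members fell into different orders. Replicate 1 was the highest and replicate 3 the lowest of the 3 for Slc2a1, Hk2, Gapdh and Pdk1, while replicate 3 was the highest for Slc16a3, Aldoa, Gpi1, Tpi1, Pfkp and Eno2. Slc2a1 had 473 in replicate 1 against 139 in replicate 3, and Slc16a3 had 579 against 4928. The macrophage marker sum was 7772, 3420 and 5405 in hTNFtg replicates 1, 2 and 3, and replicate 1 was also the shallowest library. Their part in these orders was not tested.

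**Figure D3:**
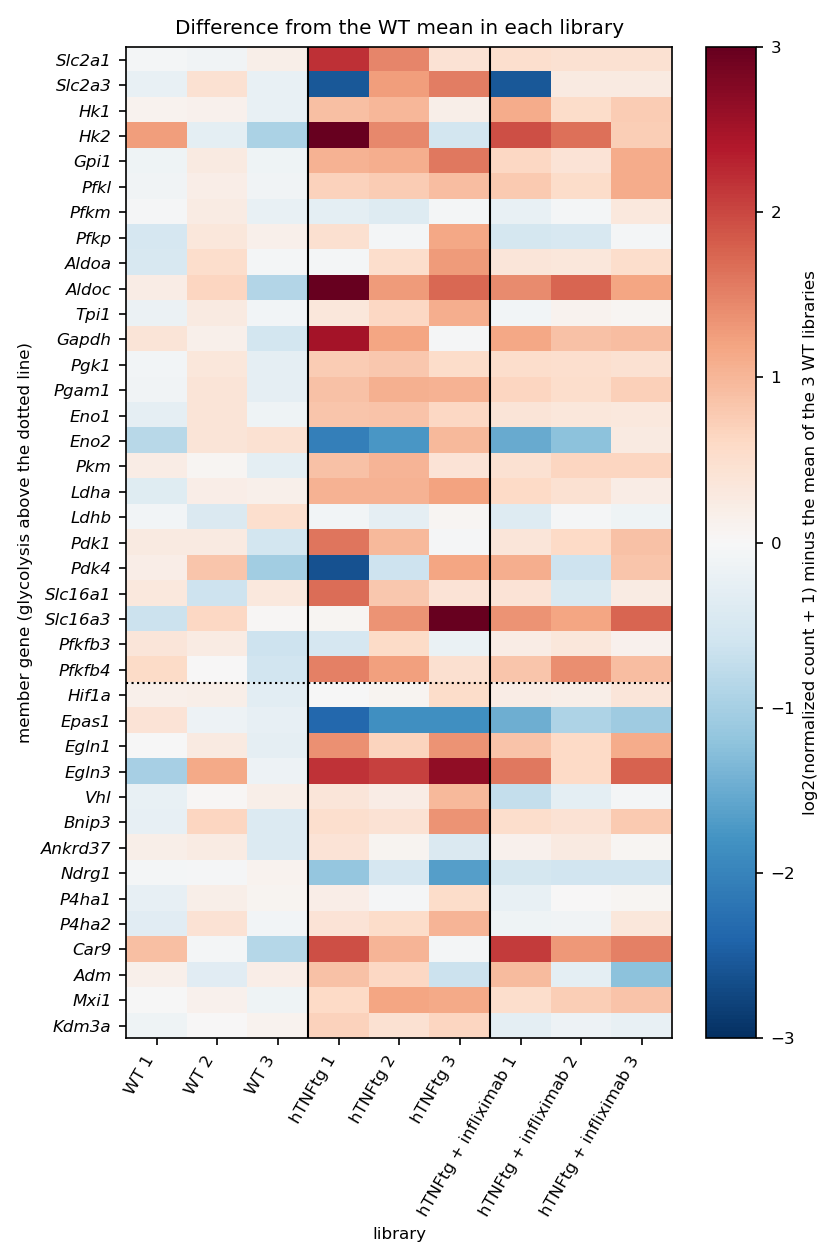
Log2(normalized count + 1) of each member (rows) in each library (columns) minus the mean of the 3 WT libraries. Colours stop at 3 in either direction, and the dotted line separates glycolysis from the HIF pathway. The rows of Pgk1, Pgam1, Eno1 and Ldha are red in all 3 hTNFtg columns and paler in each infliximab column, Epas1 and Ndrg1 are blue, and Hk2, Gapdh and Slc16a3 change along the hTNFtg columns.

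The second comparison asked how blocking TNF for 48 hours moved these genes in hTNFtg SFs; it shares the hTNFtg libraries with the first, so that a high hTNFtg library raises the first difference and lowers the second. No member passed the rule of the study in either direction in limma, against 1.49% of all 28540 genes that rose and 0.936% that fell. At an unadjusted P under 0.05, 4 members fell and none rose, against 1.44% and 2.16% of all genes. In genes with a mean of at least 10 these shares were 2.07% and 3.15%. No gene at all passed an adjusted p of 0.05 in limma (0% of genes), and edgeR, which called 0.578% of genes, called no member. The median log2 fold change of the members was -0.22, with 28 members below 0 and 11 above. Over all genes the median was 0.00, with 49.8% above 0, and over genes with a mean of at least 10 it was 0.03, with 52.7% above 0. Infliximab-treated libraries all lay below hTNFtg for 9 members (Tpi1, Pgk1, Pgam1, Eno1, Ldha, Egln3, Vhl, P4ha2 and Kdm3a), against 3.44% of all genes, and above for Epas1 alone, against 3.99%. In genes with a mean of at least 10 these shares were 5.82% and 6.45%.

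The 4 that fell were Slc2a1, Pfkp, Vhl and Kdm3a, with the values of each given above. Slc2a1 had a log2 fold change of -0.88 ± 0.39 (adjusted p = 0.803), yet hTNFtg replicate 3, at 139, lay just below the treated libraries, and the call was lost without any 1 of 5 libraries, all but hTNFtg replicate 3 (-0.90 to -0.47). Pfkp stood at -0.88 ± 0.35 (adjusted p = 0.803), with hTNFtg replicate 2 and treated replicate 3 both at 120, and the call was lost without hTNFtg replicate 1 or 3 or treated replicate 1 or 2 (-0.91 to -0.56). Vhl fell below every untreated library at -0.87 ± 0.32 (adjusted p = 0.803), a call lost without treated replicate 1 (-0.69). Kdm3a fell by 0.82 ± 0.32 on the log2 scale (adjusted p = 0.803) and was the only one of the 4 whose call held whichever library was left out. Without hTNFtg replicate 1, 6 members fell and 1 rose, and 1345 and 876 of all 28277 genes did, while the count that fell was 1 without treated replicate 1 (173 of all genes) and 2 without treated replicate 2 (161 of all genes).

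Ldha was lower in all treated libraries at -0.68 ± 0.35 (adjusted p = 0.803), and Egln3 likewise at -0.98 ± 0.47 (adjusted p = 0.803). Other members had differences near 0 with wide intervals. The log2 fold change was 0.02 ± 0.28 for Pfkl (95% interval -0.58 to 0.61), 0.12 ± 0.31 for Hk1 (-0.54 to 0.79) and 0.05 ± 0.30 for Hif1a (-0.59 to 0.69). Hk2, Gapdh and Slc16a3, whose untreated libraries spread widely, had -0.02 ± 0.73, -0.22 ± 0.49 and -0.11 ± 0.58. The macrophage marker sum was 3420 to 7772 without and 2262 to 4690 with infliximab, and 11 of 13 entries were lower, 2 of them at an unadjusted P under 0.05.

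The third comparison, infliximab-treated hTNFtg against WT SFs, asked how treated cells differed from WT. It shares the WT libraries with the first, so that a low WT library raises both differences. Hk2, Pfkfb4, Car9 and Pdk1, called here at an unadjusted P under 0.05, had not been called in the first comparison. Their log2 fold changes there were 1.47 ± 0.85, 1.07 ± 0.53, 0.97 ± 0.64 and 0.85 ± 0.43. Here they were 1.44 ± 0.52, 1.04 ± 0.39, 1.63 ± 0.45 and 0.62 ± 0.27. The SE was thus smaller here for each, and the change was larger for Car9 alone. At an unadjusted P under 0.05, 16 members were higher and 2 lower than in WT, against 6.23% and 5.68% of all 28243 genes and 9.31% and 9.05% of genes with a mean of at least 10. With the rule of the study, 5 rose and 1 fell (3.86% and 2.95% of all genes). Treated libraries lay above WT without overlap for 16 members and below for 3, against 7.14% and 7.07% of all genes. In genes with a mean of at least 10 these shares were 11.3% and 12%. No member passed an adjusted p of 0.05 in limma, against 0.74% of genes, the lowest being 0.0784 for Slc16a3. edgeR called 9 members at an adjusted p under 0.05, against 4.68% of genes: Hk1, Hk2, Gpi1, Pfkl, Aldoc, Gapdh, Slc16a3, Egln1 and Car9, all higher. The median log2 fold change of the members was 0.42, against 0.00 over all genes and -0.02 over those with a mean of at least 10.

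The 5 that rose by the rule were Hk2 (1.44 ± 0.52, adjusted p = 0.29), Aldoc (1.45 ± 0.45, adjusted p = 0.216), Slc16a3 (1.42 ± 0.30, adjusted p = 0.0784), Pfkfb4 (1.04 ± 0.39, adjusted p = 0.303) and Car9 (1.63 ± 0.45, adjusted p = 0.159), and Epas1 fell (-1.15 ± 0.35, adjusted p = 0.207). The call of Hk2 was lost without WT replicate 2 or 3 or treated replicate 1 or 2 (0.97 to 1.33), that of Pfkfb4 without WT replicate 2 or 3 or treated replicate 2 (0.75 to 1.04) and that of Aldoc without treated replicate 2 (1.29). Slc16a3 was above WT in every treated library, and the treated libraries, at 1248 to 1844, were much closer together than the untreated ones. Gapdh also rose, by 0.99 ± 0.24 (adjusted p = 0.119), with the limit on its reads given above.

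Smaller rises passed the test for Hk1 (0.81 ± 0.20, adjusted p = 0.125), Pfkl (0.82 ± 0.20, adjusted p = 0.126), Gpi1 (0.72 ± 0.22, adjusted p = 0.211), Egln1 (0.86 ± 0.21, adjusted p = 0.12) and Mxi1 (0.71 ± 0.22, adjusted p = 0.207). These 5 calls held whichever library was left out. Pgam1 (0.63 ± 0.20, adjusted p = 0.234), Pkm (0.59 ± 0.20, adjusted p = 0.252), Pgk1 (0.50 ± 0.20, adjusted p = 0.337), Pdk1 (0.62 ± 0.27, adjusted p = 0.399) and Slc2a1 (0.48 ± 0.19, adjusted p = 0.342) passed as well. Of these 5, Pgam1 alone held in every case. The call was lost for Pkm without treated replicate 2 (0.55), for Slc2a1 without WT replicate 2 (0.42), for Pgk1 without any 1 library other than WT replicate 2 (0.37 to 0.52) and for Pdk1 without any 1 library other than WT replicate 1 (0.34 to 0.76). Ndrg1 fell by 0.56 ± 0.16 on the log2 scale (adjusted p = 0.194). Ldha, at 0.42 ± 0.21 (adjusted p = 0.496), and Eno1, at 0.35 ± 0.21 (adjusted p = 0.528), did not pass, nor did Egln3, at 1.32 ± 0.60 (adjusted p = 0.429), whose treated libraries overlapped with WT. With the spread estimated from all 9 libraries, 11 of the 18 calls were kept, and those of Hk2, Gapdh, Pkm, Pgk1, Pdk1, Slc2a1 and Ndrg1 were lost.

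As a share of all normalized counts, the 25 glycolysis members made up 0.252%, 0.34% and 0.259% of the 3 WT libraries, 0.551%, 0.537% and 0.559% of the hTNFtg libraries and 0.409%, 0.41% and 0.431% of the infliximab-treated ones. The 3 groups did not overlap. Without Slc16a3, left out after its values were seen, the shares were 0.244% to 0.321% in WT, 0.536%, 0.503% and 0.457% in hTNFtg replicates 1, 2 and 3 and 0.376% to 0.387% with infliximab, again without overlap. Within hTNFtg the 6 members of the lower pathway made up 0.242%, 0.206% and 0.136% and the 6 for lactate and pyruvate 0.113%, 0.12% and 0.182%, in the opposite order. That opposite order rests on Slc16a3, which held 579, 1414 and 4928 of the 4322, 4932 and 8732 normalized counts of the lactate and pyruvate members. The 14 HIF-pathway members made up 0.222% to 0.253% in WT, 0.224% to 0.443% in hTNFtg and 0.186% to 0.398% with infliximab, with overlap of all groups. The very abundant Adm was also left out, after its values were seen. Without it, the other 13 made up 0.0804% to 0.106% in WT, 0.114% to 0.137% in hTNFtg and 0.0994% to 0.119% with infliximab.

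**Figure D4:**
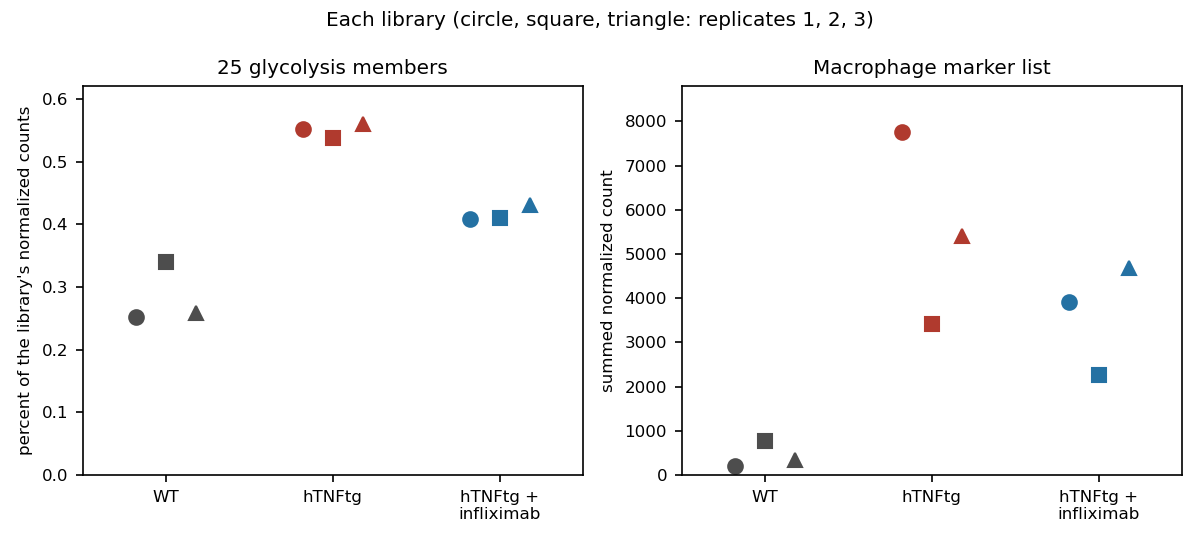
Left, the share of normalized counts held by the 25 glycolysis members (y axis, percent of each library) and right, the summed normalized count of the macrophage marker list, in each library by group on the x axis, with the shape of the point giving the replicate. The glycolytic share is lowest in WT, highest in hTNFtg and between them with infliximab, and the macrophage sum is at most 779 in WT and at least 2262 in every hTNFtg library, treated or not.

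Genes next to the members in metabolism were taken from 4 further lists, whose counts in hTNFtg stand against 4.02% of all genes that rose and 3.69% that fell, or 6.37% and 5.39% with a mean of at least 10. Among 25 other glycolytic isoenzymes and sugar-handling genes that could be tested, 1 rose and 1 fell in hTNFtg at an unadjusted P under 0.05, Pgm2 and Pgam2. Of 10 genes of the pentose phosphate and serine branches, 2 rose, the NADPH-yielding dehydrogenase Pgd (464, 524 and 511 in WT, 629, 1028 and 1549 in hTNFtg, 1.00 ± 0.35, adjusted p = 0.401) and the transaldolase Taldo1 (0.69 ± 0.31, adjusted p = 0.62). Of 14 genes of pyruvate entry into mitochondria and of monocarboxylate transport, none rose and 2 fell, Pdk3 and Pdp1. Pdp1, the phosphatase that activates pyruvate dehydrogenase, had 441, 357 and 466 in WT, 56, 110 and 89 in hTNFtg and 166, 152 and 100 with infliximab, and fell in hTNFtg, at -2.34 ± 0.32 (adjusted p = 0.0115). With infliximab all 14 had a log2 fold change below 0 against WT, while 13516 of all 28243 genes had one above 0, and 5 of the 14 fell (Pdp1, Pdk3, Pdha1, Mpc1 and Mpc2), against 5.68% of all genes and 9.05% of those with a mean of at least 10. The other lists differed: 4 rose and 1 fell of 10 pentose phosphate and serine genes, and 1 rose and 2 fell of 24 other glycolytic and sugar-handling genes. Of 34 further HIF-pathway genes, 5 rose and 2 fell. Rises were 6.23% of all genes and 9.31% of those with a mean of at least 10.

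Of 34 further HIF-pathway genes, 5 rose and 1 fell in hTNFtg at an unadjusted P under 0.05. Loxl2, a collagen crosslinking oxidase, had 359, 389 and 308 in WT, 1215, 833 and 1152 in hTNFtg and 578, 649 and 1167 with infliximab (1.58 ± 0.29, adjusted p = 0.044), and the adenylate kinase Ak4 had 161, 254 and 136 against 567, 439 and 617 (1.59 ± 0.32, adjusted p = 0.0617). Fam162a had 360, 394 and 365 in WT, 1320, 983 and 676 in hTNFtg and 898, 762 and 668 with infliximab, at 1.36 ± 0.32 (adjusted p = 0.112), and the other 2 that rose were Tmem45a and Bhlhe40. The 1 that fell was Ppp1r3c, a glycogen-targeting subunit, with 536, 692 and 907 in WT, 187, 235 and 117 in hTNFtg and 224, 187 and 69 with infliximab (-2.00 ± 0.34, adjusted p = 0.0277). Against untreated hTNFtg, 2 of the 34 rose with infliximab and 0 fell, against 2.16% and 1.44% of all genes, Ddit4 (1.14 ± 0.32, adjusted p = 0.803) and Stc2 (1.11 ± 0.50, adjusted p = 0.803), and Vegfa, the best known target, ranged from 335 to 657 in WT, 336 to 656 in hTNFtg and 521 to 657 with infliximab.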

How the data were processed

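RNA of 9 libraries (3 WT, 3 hTNFtg, 3 infliximab-treated hTNFtg) was sequenced by the authors on Ion Proton from QuantSeq 3′ libraries, mapped to mm10 with TopHat2 and then Bowtie2, counted per gene with GenomicRanges and normalized through metaseqR. The study names DESeq for its differential expression test. The values the authors deposited are gene counts divided by a size factor and rounded to whole numbers, handled as a score for 8 libraries and, where the steps gave whole reads, as a signal for hTNFtg replicate 1. Whether the counting used strand is not given in the sources used here. Another 24 per-sample columns hold other scales of the same values and were not used, nor were the authors' columns of fold changes and p-values.

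Depth was read from the step between low values: in hTNFtg replicate 1, 100% of values up to 20 reads were whole within 0.1 read. Approximate reads ran from 613344 to 9014869 per library, so hTNFtg replicate 1 is the least precise. The test was limma 3.58.1 in R 4.3.3 (lmFit, eBayes with trend) on log2(normalized count + 1), on the 6 libraries of each comparison, over all genes above 0 in at least 1 of them, with Benjamini-Hochberg adjustment over all. Fold changes are on that scale with their SE. edgeR 4.0.16 (quasi-likelihood) on approximate reads was an alternative, which called 923, 165 and 1321 genes at an adjusted p under 0.05 in hTNFtg against WT, infliximab against untreated hTNFtg and infliximab-treated hTNFtg against WT. Further alternatives were the pseudocount, a mean of at least 10, median-ratio rescaling, array quality weights, the replicate block, all 9 libraries in one fit and leaving out each library. Array quality weights over all 9 libraries were lowest for hTNFtg replicates 1 (0.257) and 3 (0.352), the shallowest and the deepest library. The others had 0.828 to 2.82, the highest being hTNFtg replicate 2. The scripts were tested on simulated data. The study's methods state 3 biological replicates, and the p-values measure the spread between these cultures.

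The members and lists were chosen with earlier results of these data known. All 39 members are accounted for. Those with an unadjusted P under 0.05 in any comparison and a mean of at least 10, and 8 set genes (Hif1a, Epas1, Vhl, Slc2a1, Hk2, Pfkfb3, Ldha, Gapdh), have every library's value, 26 in all. Other genes with values (overlapping genes, copies and list members) were named after their values were seen.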

Additional observations from a re-analysis of the deposited data

How the results depend on the processing

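The number of members past the rule of the study in hTNFtg against WT (10) was within 1.5 times under each alternative run, and so were both counts without adjustment in infliximab-treated hTNFtg against WT (6 and 18), although all 9 libraries in one fit kept 11 of those 18 calls. Of the 17 calls in hTNFtg against WT, a mean of at least 10 lost Slc16a3, Hk1 and Gapdh, and edgeR lost Pkm, Hk1, Pgk1 and Eno1. In hTNFtg against WT, the count at an unadjusted P under 0.05 (17) ran from 10 without hTNFtg replicate 2 to 22 without hTNFtg replicate 3. Of all genes, 1066 rose and 1108 fell of 27539 without the former, and 1436 and 1555 of 27017 without the latter. With all libraries, 1148 and 1053 of 28522 did. The median log2 fold change of the members ran from 0.61 to 0.85 with 1 library left out. At an adjusted p under 0.05 in this comparison, where limma gave 0, array quality weights gave 5 members (of all 28522 genes, 603 higher and 401 lower). All 9 libraries in one fit gave 1 (of 30297, 221 and 150) and edgeR gave 7 (3.24% of all genes). In infliximab-treated hTNFtg against WT, a mean of at least 10 gave 1 of 37 members (of 13470 genes, 258 higher and 230 lower). There edgeR gave 9 (4.68% of all genes). In infliximab against untreated hTNFtg, the count at an unadjusted P under 0.05 (4) became 11 with array quality weights, all lower. There 3021 of all 28540 genes were lower in place of 410. With 1 library left out this count was lowest at 1, without treated replicate 1, where 504 of all 27928 genes were higher and 173 lower. It was highest at 7, without hTNFtg replicate 1, with 876 and 1345 of 28277. The count past the rule of the study (0) ran from 0 to 2 with 1 library left out. It was 2, all lower, without hTNFtg replicate 2 (655 of 27625 genes higher and 434 lower). The same held without hTNFtg replicate 3 (700 and 415 of 27066) or treated replicate 3 (357 and 157 of 27583). The cause was not tested.

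Replicates that share a number were not shown to be paired. In their deviations, same-numbered libraries correlated at 0.29, -0.14 and 0.35 between hTNFtg and WT, at 0.07, 0.20 and 0.27 between infliximab-treated and untreated hTNFtg, where treated replicate 1 correlated more with untreated replicate 2 (0.13), and at 0.10, -0.15 and 0.01 between infliximab-treated hTNFtg and WT. With the replicate number as a block, the count of 4 in infliximab against untreated hTNFtg became 8, all lower. Of all 28540 genes, 473 were then lower in place of 410 and 603 higher in place of 616. The other counts of members stayed within 1.5 times. The block ended the calls of Slc16a3 in hTNFtg against WT, Slc2a1 in infliximab against untreated hTNFtg and Pdk1 in infliximab-treated hTNFtg against WT.

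Only members given library by library are listed here. Their values that changed sign were all short of the threshold in limma with all libraries. In hTNFtg against WT, Pfkfb3 (-0.04) was 0.36 with array quality weights and -0.35 to 0.19 with 1 library left out. In infliximab-treated hTNFtg against WT, Pfkfb3 (0.23) was -0.071 to 0.42 with 1 left out. In infliximab against untreated hTNFtg, array quality weights gave -0.13 for Hk1, 0.11 for Hk2, -0.002 for Pfkl, 0.074 for Aldoc, -0.20 for Pfkfb3 and 0.057 for Egln1, and edgeR gave 0.067 for Pfkfb4. With 1 library left out, this comparison gave -0.13 to 0.27 for Hk1, -1.03 to 1.00 for Hk2, -0.13 to 0.15 for Pfkl, -0.85 to 0.42 for Gapdh, -0.68 to 0.14 for Pdk1, -0.84 to 0.71 for Slc16a3, -0.32 to 0.20 for Pfkfb4 and -0.067 to 0.23 for Hif1a. Values under 18.7 in hTNFtg replicate 1 rest on 3 reads or fewer, which limits Epas1, Slc2a3, Pdk4 and Eno2 there.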
